A study of Mus musculus with 8 samples.

Results

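The Hox genes encode homeodomain transcription factors that lie in 4 clusters, Hoxa to Hoxd, and are numbered by paralog group from 1 to 13. The members described here are all genes of the deposited tables whose symbol is Hox, a cluster letter and a number. They were 39 of 23278 genes, with 11 in the Hoxa cluster, 10 in Hoxb, 9 in Hoxc and 9 in Hoxd. Of these, 27 had at least 1 RPKM (reads scaled to gene model length and library depth, so that levels can be compared between genes) in at least 2 libraries and were tested. The other 12, which lie at the ends of the clusters (paralogs 1 and 11 to 13), stayed below that level and were not tested.

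RNA was sequenced from the lumbar cord of newborn mice (FVB/N strain, postnatal day 1), an age the study calls pre-symptomatic, in 8 libraries. Ventral horn motor neurons and white matter were cut out by laser capture from hematoxylin-stained sections, so cells were chosen by position and shape and not by a marker gene. WT mice are labelled only as such; the SMA (spinal muscular atrophy) mice carried the genotype SMN2+/+;SMNΔ7+/+;Smn-/-, that is, human SMN2 and SMNΔ7 copies on a background without mouse Smn. Each of the 4 groups (WT motor neurons, SMA motor neurons, WT white matter, SMA white matter) had 2 libraries. The labels name no animals, so p-values measure the spread between these libraries, which may be technical.

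During development, Hox genes are switched on in order along each cluster, low paralog numbers reaching farthest toward the head and high numbers lying toward the tail. In spinal motor neurons they set which muscles are innervated: Hoxc6 and Hoxc8 are known for brachial motor columns and pools, Hoxc9 for the thoracic level and Hox10 proteins for the lumbar level that supplies the hindlimb. Pbx and Meis proteins bind DNA with them as cofactors, and Polycomb proteins keep silent Hox genes repressed.

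Smn1, the mouse gene deleted in SMA mice, was listed at 0 in all 4 SMA libraries and at 2.93 to 14.3 RPKM in the 4 WT ones. The 8 motor neuron markers used as a check (Chat and Isl1 among them) summed to 1680 to 2410 RPKM in motor neuron libraries and to 17.1 to 51.0 in white matter, and 8 myelin markers to 41.6 to 116 and to 1840 to 4610. White matter captures also held transcripts of other cells. All 5 fibroblast or meningeal markers and all 7 microglial markers were called lower in motor neurons. Fibroblast or meningeal markers summed to 58.4 to 216 RPKM in white matter and to 3.92 to 16.1 in motor neuron libraries. The sums of the microglial markers were 192 to 272 and 20.4 to 73.8 RPKM. The 10 spinal interneuron markers summed to 38.8 to 72.8 RPKM in motor neuron libraries and 4.12 to 12.8 in white matter, and all 6 that were tested were higher in motor neurons. Skeletal muscle markers reached 179 RPKM in SMA white matter replicate 2, against 2.43 to 17.7 in the other white matter libraries. The 2 SMA motor neuron libraries were the least alike of any group (correlation 0.889, against 0.936 to 0.963). As to depth, 1 read over 1000 bases of a gene was worth 0.00972 to 0.0129 RPKM.

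The summed level of all 39 Hox genes overlapped between the regions, while the shares of paralogs 4 to 8 and of paralogs 9 and 10 did not. The sum was 87.4, 98.6, 138 and 105 RPKM in motor neurons (WT replicates 1 and 2, then SMA replicates 1 and 2) and 98.7, 104, 144 and 129 RPKM in white matter, in the same order. In both regions the highest sum was that of SMA replicate 1. Paralogs 9 and 10 made up 44.4, 53.6, 56.0 and 50.2% of the sum in motor neurons and 24.7, 30.6, 32.7 and 27.7% in white matter, with no overlap. The genes of this band did not move together. Mean RPKM in motor neurons and white matter was 19.6 and 6.11 for Hoxd9, 16.1 and 4.46 for Hoxc10 and 3.92 and 0.191 for Hoxd10. It was 2.89 and 6.96 for Hoxb9, 4.06 and 7.35 for Hoxc9, 2.86 and 4.73 for Hoxa10 and 5.86 and 4.94 for Hoxa9. Paralogs 4 to 8 made up 33.9 to 45.8% in motor neurons and 58.1 to 62.0% in white matter. Paralogs 1 to 3 took 8.97 to 15.9% over all libraries. By cluster, Hoxd genes took 26.4 to 35.8% of the sum in motor neurons and 11.5 to 15.3% in white matter, and Hoxb genes at most 14.1% and at least 20.4%. The Hoxa and Hoxc shares overlapped between the regions. These shares are taken within a library and so do not depend on the scaling between libraries; they describe the members and were not tested.

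**Figure D1:**
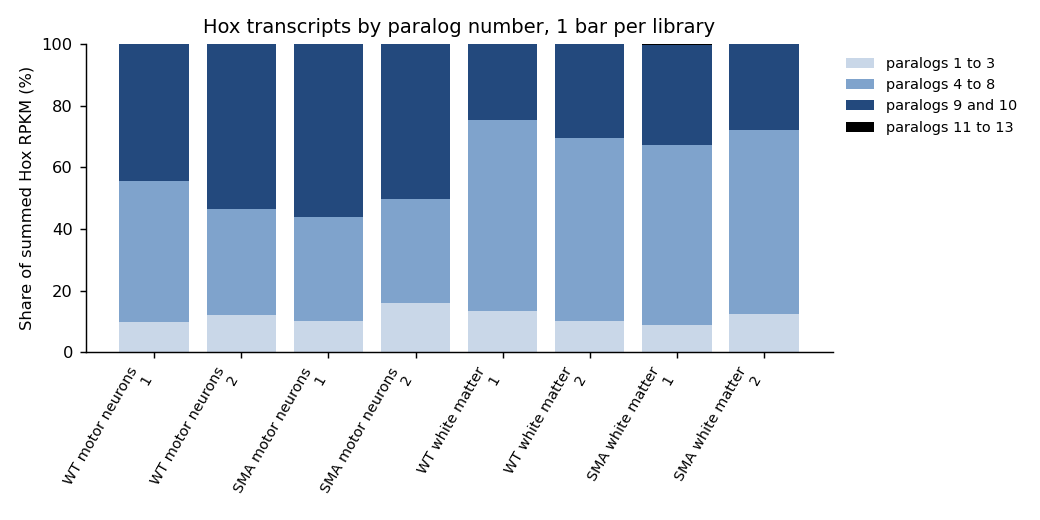
Share of the summed RPKM of all 39 Hox genes (y axis, %) held by paralogs 1 to 3, 4 to 8, 9 and 10, and 11 to 13, with 1 bar per library. Paralogs 9 and 10 hold 44.4 to 56.0% in the 4 motor neuron libraries and 24.7 to 32.7% in the 4 white matter libraries.

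Members past paralog 10 were at or near 0 in every cluster. Hoxa11 was listed at 0.0103 RPKM in WT white matter replicate 1 and 0.013 in SMA white matter replicate 2, and at 0 in the other libraries. Hoxc11 was at 0.0226 RPKM in SMA white matter replicate 1 only, and Hoxd11 was listed at 0 in all 8 libraries. Of paralogs 12 and 13, Hoxb13, Hoxd12 and Hoxd13 were listed at 0 everywhere, and Hoxa13, Hoxc12 and Hoxc13 were listed above 0 in 1 or 2 SMA white matter libraries, at up to 0.331 RPKM (Hoxc12). Paralogs 11 to 13 were listed at 0 in all 4 motor neuron libraries. At the other end of the clusters, Hoxb1 was at 0 to 0.355 RPKM and Hoxd1 at 0 to 0.463.

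**Figure D2:**
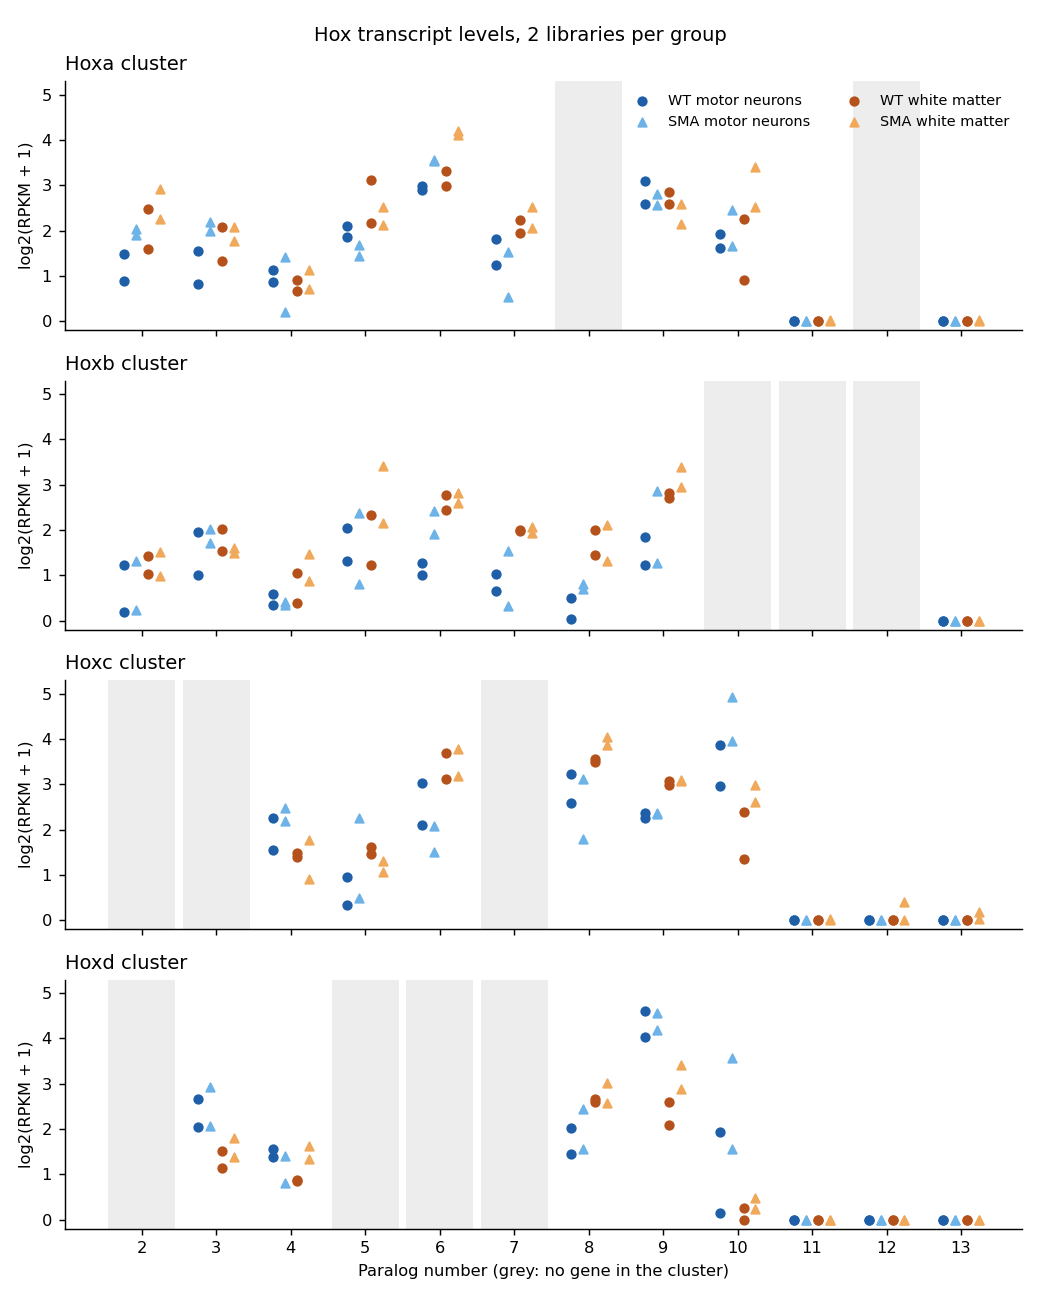
Level of the Hox genes of paralog groups 2 to 13, as log2(RPKM + 1), against paralog number, with 1 panel per cluster and 1 point per library (circles WT, triangles SMA, blue shades motor neurons, orange shades white matter). The highest mean over the 8 libraries in each cluster is that of Hoxa6, Hoxb9, Hoxc10 and Hoxd9, and values lie at or near 0 from paralog 11 on.

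The order of levels differed between the regions. In motor neurons the highest member was Hoxd9 (19.6 RPKM on average over the 4 libraries), followed by Hoxc10 (16.1), Hoxa6 (8.68), Hoxc8 (5.89) and Hoxa9 (5.86). The SD of Hoxc10 was 9.49, so its place beside Hoxd9 is not resolved, and neither is the order of the next ones. The order also leans on gene length. The length worked out from the RPKM steps was 699 bases for Hoxa6 and 2272 for Hoxa9. In reads, Hoxa6 had 346 to 616 per motor neuron library and Hoxa9 had 879 to 1565. In white matter the order was Hoxc8 (12.5), Hoxa6 (12.4), Hoxc6 (10.2), Hoxc9 (7.35) and Hoxb9 (6.96), with SDs of 0.275 to 5.14, and the first 3 do not separate beyond their spread. Hoxd10 stood at rank 8 of 39 in motor neurons and rank 29 in white matter, but its motor neuron mean of 3.92 RPKM rests on SMA replicate 1: without that library it was 1.62 RPKM, at rank 21.

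The first comparison asked how motor neurons differ from the white matter around them. Over both genotypes, 4 of the 27 tested Hox genes were higher in motor neurons and 9 were lower, by limma on log2(RPKM + 1) with Benjamini-Hochberg adjustment over all 13948 genes tested and a threshold of 0.05. Regional differences were common in the whole table: 46.4% of all genes passed, 23.5% higher in motor neurons and 22.9% lower. The Hox shares were 14.8% higher and 33.3% lower. The median log2 difference was -0.50 for the Hox genes and -0.08 for all genes. The 4 higher ones were Hoxd9, Hoxc10, Hoxd10 and Hoxd3; the 9 lower ones were Hoxa7, Hoxb6, Hoxb7, Hoxb8, Hoxb9, Hoxc6, Hoxc8, Hoxc9 and Hoxd8.

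**Figure D3:**
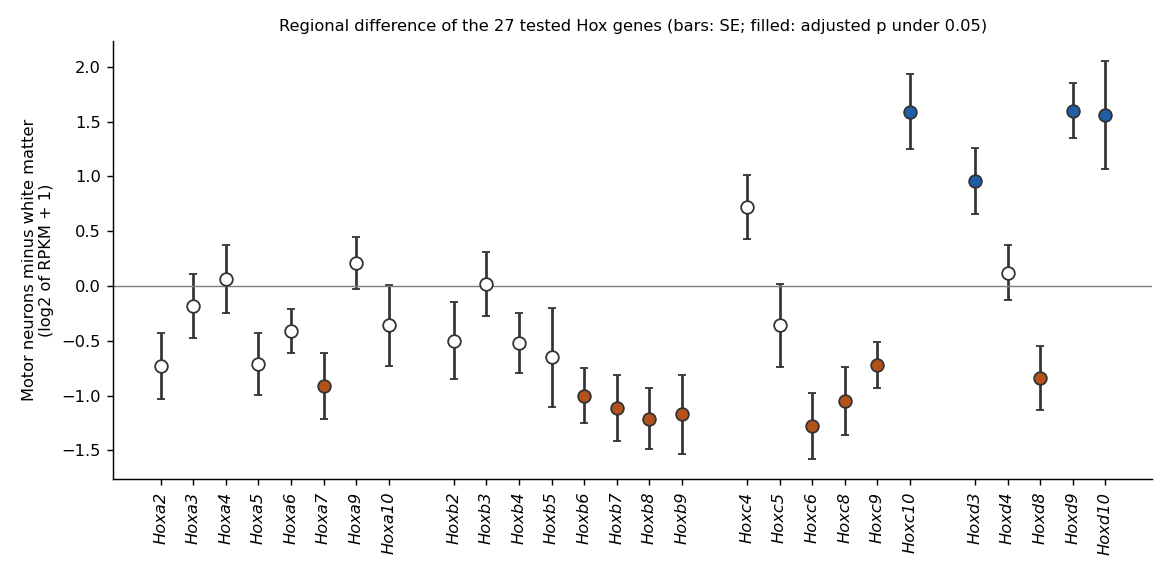
Difference of motor neurons minus white matter over both genotypes, on the log2(RPKM + 1) scale, for the 27 tested Hox genes in cluster order, with standard errors from limma. Filled points passed the threshold: 4 lie above 0 (blue) and 9 below (orange).

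Hoxd9, which lies beside Hoxd10 in the Hoxd cluster, had 15.4 and 23.4 RPKM in WT motor neurons, 17.1 and 22.5 in SMA motor neurons, 3.24 and 5.08 in WT white matter and 9.70 and 6.42 in SMA white matter. Every motor neuron library lay above every white matter library. The log2 difference was 1.60 ± 0.25 (SE; adjusted p = 0.000718). In reads, these values stand for 2938 to 3895 reads per motor neuron library and 591 to 1970 per white matter library.

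Hoxc10, which is known to act in lumbar motor neurons, had 6.82 and 13.7 RPKM in WT motor neurons, 29.3 and 14.4 in SMA motor neurons, 1.55 and 4.27 in WT white matter and 6.90 and 5.14 in SMA white matter. One motor neuron library (WT replicate 1) lay just below the highest white matter library, and the rest did not overlap. The log2 difference was 1.59 ± 0.34 (adjusted p = 0.00446).

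Hoxd10, its Hoxd paralog with a known part in hindlimb motor neuron identity, was uneven between replicates. It had 0.111 and 2.81 RPKM in WT motor neurons, 10.8 and 1.95 in SMA motor neurons, 0 and 0.197 in WT white matter and 0.393 and 0.174 in SMA white matter. WT motor neuron replicate 1, with 18 reads, lay among the white matter libraries, and SMA motor neuron replicate 1, with 1581 reads, lay far above the rest. The log2 difference was 1.56 ± 0.49 (adjusted p = 0.0262). The call held in 8 of 16 alternatives (adjusted p of 0.00224 to 0.0988): without SMA motor neuron replicate 1 the difference was 1.06 (adjusted p = 0.0516), without WT motor neuron replicate 2 it was 1.12 (0.0988), and leaving out any single white matter library also ended the call.

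Hoxa10, the remaining member of paralog group 10, had 2.08 and 2.77 RPKM in WT motor neurons, 4.46 and 2.15 in SMA motor neurons, 0.875 and 3.75 in WT white matter and 9.53 and 4.74 in SMA white matter. The regions overlapped, and its log2 difference of -0.36 ± 0.37 missed the threshold (adjusted p = 0.45).

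Hoxd3, an anterior gene of the Hoxd cluster, was the remaining member that was higher in motor neurons. It had 3.10 and 5.33 RPKM in WT and 3.19 and 6.61 in SMA motor neurons, and 1.86 and 1.21 in WT and 2.51 and 1.61 in SMA white matter, without overlap. The log2 difference was 0.96 ± 0.30 (adjusted p = 0.0239). In the GENCODE M21 annotation (GRCm38), Hoxd3 shares 2225 exon bases with a second gene on its strand and 347 with the antisense gene Hoxd3os1, so its reads cannot be assigned to it alone. Among the other members past the threshold, Hoxa7 shares 579 exon bases with the antisense gene Hoxaas3 and Hoxd10 shares 104 with another gene on its strand. No 2 members share exon bases with each other.

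All 9 lower members lie between paralogs 6 and 9. In the Hoxb cluster, a contiguous run of 4 genes (Hoxb6, Hoxb7, Hoxb8 and Hoxb9) was lower in motor neurons. Hoxb8, known for its expression in the blood lineage as well as the cord, had 0.0249 and 0.419 RPKM in WT and 0.745 and 0.633 in SMA motor neurons, and 3.0 and 1.74 in WT and 3.34 and 1.51 in SMA white matter, without overlap. Its log2 difference was -1.21 ± 0.28 (adjusted p = 0.00656). Hoxb7 had 0.580, 1.03, 1.89 and 0.258 RPKM in the 4 motor neuron libraries, WT first, and 2.96, 2.98, 2.84 and 3.20 in white matter, where the libraries nearly coincide.

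Hoxb6 had 1.43 and 1.01 RPKM in WT and 2.76 and 4.38 in SMA motor neurons, and 4.46 and 5.83 in WT and 6.0 and 5.07 in SMA white matter. Hoxb9 had 2.61 and 1.34 RPKM in WT and 6.22 and 1.40 in SMA motor neurons, and 5.50 and 6.07 in WT and 9.57 and 6.72 in SMA white matter. Hoxb6 did not overlap between the regions, and Hoxb9 did only through SMA motor neuron replicate 1. Their log2 differences were -1.0 ± 0.25 (adjusted p = 0.00872) and -1.17 ± 0.36 (adjusted p = 0.0236), and that of Hoxb7 was -1.11 ± 0.30 (adjusted p = 0.014). Hoxb5, next in the cluster, had 1.48, 3.10, 4.22 and 0.762 RPKM in motor neurons, WT first, against 4.05, 1.36, 3.49 and 9.72 in white matter, with overlap (adjusted p = 0.256; 0.0467 without SMA motor neuron replicate 1).

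In the Hoxc cluster, Hoxc6 and Hoxc8, both known from brachial motor columns, and Hoxc9, known from the thoracic cord, were lower in motor neurons. Hoxc6 had 7.11, 3.27, 1.82 and 3.20 RPKM in motor neurons, WT first, and 12.0, 7.64, 12.8 and 8.14 in white matter, without overlap. Hoxc8 had 8.36, 5.0, 7.73 and 2.46 RPKM in motor neurons against 10.2, 10.7, 15.5 and 13.6 in white matter, again without overlap. Hoxc9 varied little within a region: 4.18, 3.81, 4.08 and 4.18 RPKM in motor neurons against 6.95, 7.37, 7.46 and 7.59 in white matter. The log2 differences were -1.28 ± 0.30, -1.05 ± 0.31 and -0.72 ± 0.21, with adjusted p of 0.00723, 0.0201 and 0.0189.

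The last 2 lower members were Hoxa7 and Hoxd8. Hoxa7 had 2.49, 1.37, 0.458 and 1.89 RPKM in motor neurons, WT first, and 2.87, 3.71, 3.19 and 4.74 in white matter. Hoxd8 had 3.09, 1.72, 4.45 and 1.94 RPKM in motor neurons against 5.03, 5.3, 7.08 and 4.99 in white matter. Neither overlapped between the regions, and the log2 differences were -0.91 ± 0.30 (adjusted p = 0.0318) and -0.84 ± 0.29 (adjusted p = 0.0361). In the Hoxa cluster Hoxa7 was the single member past the threshold. Its most abundant member, Hoxa6, had 6.93, 6.39, 10.8 and 10.6 RPKM in motor neurons against 6.96, 8.98, 17.3 and 16.2 in white matter (adjusted p = 0.12), and Hoxa9 had 7.57, 4.99, 4.91 and 5.98 against 6.26, 5.02, 3.45 and 5.04 (adjusted p = 0.502).

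Of these 13 calls, 5 (Hoxb6, Hoxb8, Hoxc6, Hoxc10 and Hoxd9) passed under all 16 alternatives. The calls lost most often were Hoxd8 (held in 7 of 16, adjusted p up to 0.134), Hoxa7 and Hoxd10 (8 each, up to 0.117 and 0.0988). Hoxc8 and Hoxc9 held in 10 (up to 0.0827 and 0.0684), Hoxb9 in 11 (up to 0.0892), Hoxd3 in 12 (up to 0.0971) and Hoxb7 in 15, lost without WT motor neuron replicate 1 (0.0554). Leaving out WT white matter replicate 2 ended 7 of these calls, those of Hoxa7, Hoxb9, Hoxc8, Hoxc9, Hoxd3, Hoxd8 and Hoxd10, and leaving out WT motor neuron replicate 2 ended the same 7. Leaving out WT white matter replicate 1 or SMA white matter replicate 1 ended the calls of Hoxa7, Hoxb9, Hoxc8, Hoxc9, Hoxd8 and Hoxd10, and leaving out SMA white matter replicate 2 those of Hoxa7, Hoxc8, Hoxc9, Hoxd3, Hoxd8 and Hoxd10. Hoxc9 was also lost without WT motor neuron replicate 1, Hoxa7 and Hoxd10 without SMA motor neuron replicate 1, and Hoxd8 without SMA motor neuron replicate 2. The count depended on single libraries: it was 6 without WT motor neuron replicate 2, 6 without WT white matter replicate 2, 8 and 7 without SMA white matter replicates 1 and 2, and 7 with no filter on low values. The fibroblast and microglial markers given above move with the same regional contrast. So do those of astrocytes (6 of 7 called lower, sums of 130 to 218 RPKM in motor neurons against 601 to 918). The same holds for oligodendrocyte precursors (5 of 5, 51.6 to 65.0 against 213 to 402) and skeletal muscle (2 of 3 tested). Red blood cell markers were called lower as well (4 of 4, 176 to 358 against 590 to 3700). Of these, Hba-a1 and Hba-a2 had identical reads in every library, as had Hbb-b1 and Hbb-b2, so the sums count such reads more than once. The part of any of these cell types in the lower Hox values was not tested. Spinal interneuron markers moved the other way, with all 6 tested ones called higher in motor neurons. Their part in the higher Hox values, such as those of Hoxd9 and Hoxc10, was not tested either. In captured tissue, fewer cells of a type and less RNA per cell cannot be told apart.

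Neighbours within a cluster were also set against each other, and the pairs named were picked from 22 after their values were seen. In the Hoxd cluster, the log2 ratio of Hoxd9 to Hoxd8 was 2.32, 3.77, 1.94 and 3.54 in the 4 motor neuron libraries, WT first, and -0.63, -0.06, 0.45 and 0.36 in white matter. In the Hoxc cluster, the log2 ratio of Hoxc10 to Hoxc9 was 0.71, 1.85, 2.85 and 1.78 in motor neurons and -2.17, -0.79, -0.11 and -0.56 in white matter. Neither ratio overlapped between the regions, with differences of 2.86 and 2.7 between the regional means. In white matter Hoxd9 and Hoxd8 were about level, and Hoxc10 lay below Hoxc9 in all 4 libraries. The ratio of Hoxa9 to Hoxa7 was the other one without overlap, at 1.6 to 3.42 and 0.09 to 1.13. How often ratios of other gene pairs separate was not worked out, and 46.4% of all genes passed between these regions. A ratio within a library does not depend on scaling or on the pseudocount of 1. It shows unequal levels of the 2 genes and not which of them moved. The Hoxa10 to Hoxa9 ratio, at -1.87 to -0.14 in motor neurons and -2.84 to 1.47 in white matter, overlapped.

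**Figure D4:**
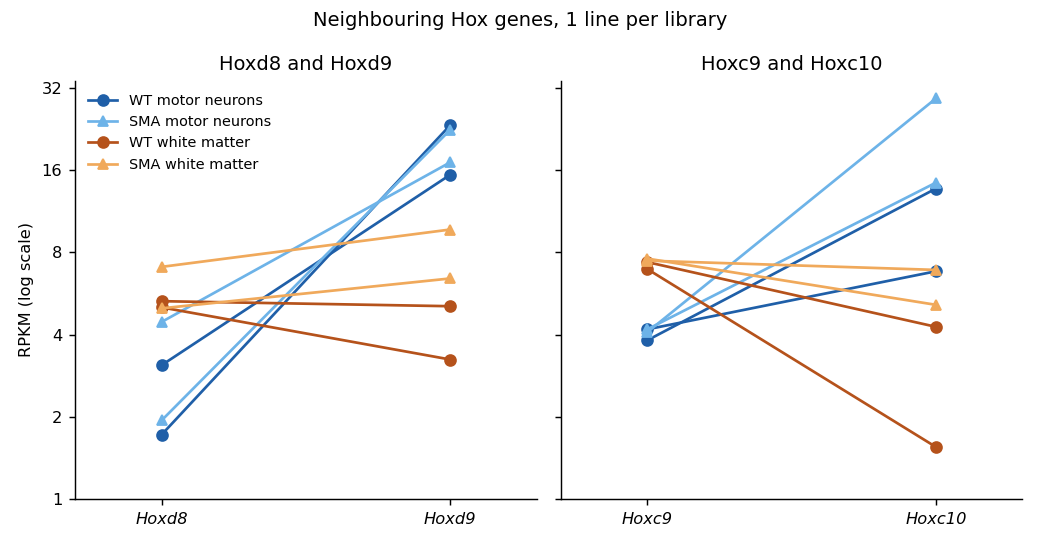
RPKM (log axis) of the neighbours Hoxd8 and Hoxd9 (left) and Hoxc9 and Hoxc10 (right), with 1 line per library. The log2 ratio of the higher-numbered gene to the lower is 1.94 to 3.77 and 0.71 to 2.85 in motor neurons, and -0.63 to 0.45 and -2.17 to -0.11 in white matter.

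The stretches before the start sites of Hoxd8 and Hoxd9 are shown because these neighbours carry the largest such shift, and that of Hoxb8 because it was the lower member with the largest difference among the 4 Hoxb genes. RefSeq (GRCm38.p6) gave promoters for 22 of the 39 members, 24 in all, and the 250 bases before each start were searched on both strands for TGATNNAT (a PBX-HOX site), TTTATG (a CDX site), TAATTA (a homeodomain core), CCAAT and TATAAA. Capitals mark matches.
Hoxd8, chr2:74704365-74704614, plus strand: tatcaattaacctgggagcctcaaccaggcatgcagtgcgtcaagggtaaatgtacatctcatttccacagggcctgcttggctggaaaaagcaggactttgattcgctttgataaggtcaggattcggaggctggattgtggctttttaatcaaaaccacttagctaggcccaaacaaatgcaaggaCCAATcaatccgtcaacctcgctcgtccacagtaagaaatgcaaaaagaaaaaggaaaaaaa
Hoxd9, chr2:74697513-74697762, plus strand: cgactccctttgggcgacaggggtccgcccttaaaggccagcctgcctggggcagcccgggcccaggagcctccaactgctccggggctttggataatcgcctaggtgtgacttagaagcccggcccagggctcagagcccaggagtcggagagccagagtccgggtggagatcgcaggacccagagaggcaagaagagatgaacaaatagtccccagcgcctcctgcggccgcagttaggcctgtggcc
Hoxb8, chr11:96281655-96281904, plus strand: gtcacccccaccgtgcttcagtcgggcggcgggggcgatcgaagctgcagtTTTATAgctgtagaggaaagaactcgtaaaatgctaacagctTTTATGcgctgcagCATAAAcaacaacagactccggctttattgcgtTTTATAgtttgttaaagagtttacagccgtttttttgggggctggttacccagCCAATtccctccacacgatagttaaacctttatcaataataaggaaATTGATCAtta

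The 3 windows differ in composition. Hoxd9 has 65.2% G and C with 13 CpG and held none of the 5 motifs, whereas Hoxd8 has 44.4% with 6 CpG and held 1 CCAAT box that begins 62 bases before the start. Hoxb8 also has 44.4% G and C and held 1 CCAAT box at 57 bases, 2 TTTATG matches at 157 and 143 bases, 2 TATAAA matches at 199 and 110 bases, and 1 TGATNNAT match at 11 bases before the start. Over all Hox promoters, CCAAT was found in 58.3% (33.8% of the 32851 promoters in the table), TTTATG in 20.8% (10.8%), TGATNNAT in 16.7% (7.68%), TATAAA in 16.7% (12.4%) and TAATTA in 8.33% (4.84%). In the same order, these shares stand for only 14, 5, 4, 4 and 2 of the 24 Hox promoters. The median G and C content was 58.6% in the Hox promoters and 52.4% in all promoters. A match is a description of the letters and not a site of binding.

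Within each genotype fewer members passed. In WT mice, 2 Hox genes were higher in motor neurons (Hoxd9, adjusted p = 0.00277, and Hoxc10, adjusted p = 0.0395) and 2 were lower (Hoxb6, adjusted p = 0.0119, and Hoxb8, adjusted p = 0.0227), or 7.41% in each direction. Over all genes 28.4% passed, 18.6% higher and 9.85% lower. In SMA mice, 3 were higher (Hoxc10, adjusted p = 0.0307, Hoxd9, adjusted p = 0.028, and Hoxd10, adjusted p = 0.0374) and 3 lower (Hoxc6, adjusted p = 0.0154, Hoxc8, adjusted p = 0.0291, and Hoxa7, adjusted p = 0.0496), 11.1% in each direction, where 30.8% of all genes passed, 13.6% higher and 17.2% lower. That a gene passed in one genotype and not in the other is no test of a difference: the interaction of region and genotype passed for 0 of 27 Hox genes in limma and for 0 by voom on recovered reads, with 0% called over all genes. At an unadjusted p under 0.05 there were 0 of the 27 Hox genes and 4.97% of all genes.

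Hoxd9 in WT was the 1 of these 10 calls that held in all 17 alternatives, and Hoxa7 in SMA held in 1 of 17. In WT the count of members past the threshold was 1 without either WT motor neuron library, 2 without either WT white matter library, 7 without either SMA motor neuron library, and the split of higher and lower calls went from 2 and 2 to 2 and 4 with median-of-ratios scaling and 2 and 6 with quantile normalization. In SMA the count was 3 without either WT white matter library, 0 without SMA white matter replicate 1 and 1 without SMA white matter replicate 2, and the split of 3 and 3 became 3 and 2 with median-of-ratios scaling and 4 and 2 with quantile normalization.

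The second comparison asked whether SMA mice differ from WT mice within a region. No Hox gene passed the threshold in motor neurons, in white matter or over both regions: limma called 0 of 27 in each, 0% of all genes passed, and voom on recovered reads called 0 of the Hox genes. At an unadjusted p under 0.05 there was 1 Hox gene in motor neurons (Hoxb6), 3 in white matter (Hoxa6, Hoxa10 and Hoxd9) and 4 over both regions (Hoxa6, Hoxa10, Hoxb6 and Hoxc10), with positive SMA minus WT differences in each case. Over all genes, 4.37, 6.31 and 5.99% had an unadjusted p under 0.05 in these contrasts. With 2 libraries a group, a call that misses the threshold does not show that levels are equal.

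Hoxa6 had the smallest unadjusted p. It had 10.8 and 10.6 RPKM in SMA against 6.93 and 6.39 in WT motor neurons. In white matter it had 17.3 and 16.2 in SMA against 6.96 and 8.98 in WT. Both regions were without overlap, which with 2 libraries a group is a description and not a test. The log2 difference over both regions was 0.80 ± 0.20 (unadjusted p = 0.00266, adjusted p = 0.761; 0.208 to 1.0 over the 16 alternatives). The Hoxc10 values given above did not overlap between genotypes in either region, and the log2 difference was 0.97 ± 0.34 (adjusted p = 0.764). Hoxa10 had a difference of 0.83 ± 0.37 over both regions (adjusted p = 0.824) and of 1.38 ± 0.52 in white matter (adjusted p = 0.741). For Hoxd10 it was 1.52 ± 0.69 in motor neurons (adjusted p = 1.0), where SMA replicate 1 lay far above the other 3 libraries. Cell type markers also separated by genotype, and their part in these Hox values was not tested. In motor neurons, microglial markers summed to 73.8 and 64.0 RPKM in SMA and to 20.4 and 23.7 in WT. Motor neuron markers summed there to 1680 and 1680 in SMA and to 2410 and 2050 in WT, and myelin markers to 116 and 79.7 and to 64.9 and 41.6. In white matter, fibroblast or meningeal markers summed to 216 and 132 in SMA and to 58.4 and 96.9 in WT. Astrocyte markers summed there to 918 and 783 in SMA and to 601 and 733 in WT, and Schwann cell markers to 112 and 41.5 and to 33.3 and 25.4. Interneuron markers summed in motor neurons to 70.5 and 72.8 in SMA and to 62.5 and 38.8 in WT. Some other sums also separated, while those of red blood cell and oligodendrocyte precursor markers overlapped in both regions.

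The median SMA minus WT difference of the 27 Hox genes was 0.15 in motor neurons, where that of all genes was -0.05, and 0.20 in white matter, where that of all genes was 0.27. With median-of-ratios scaling the latter was 0.001, so the white matter differences of the Hox genes are to be read against 0.27. Paralog group 10 summed to 9.01 and 19.3 RPKM in WT and 44.6 and 18.5 in SMA motor neurons, and to 2.42 and 8.22 in WT and 16.8 and 10.1 in SMA white matter. The genotypes overlapped in motor neurons and did not in white matter.

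**Figure D5:**
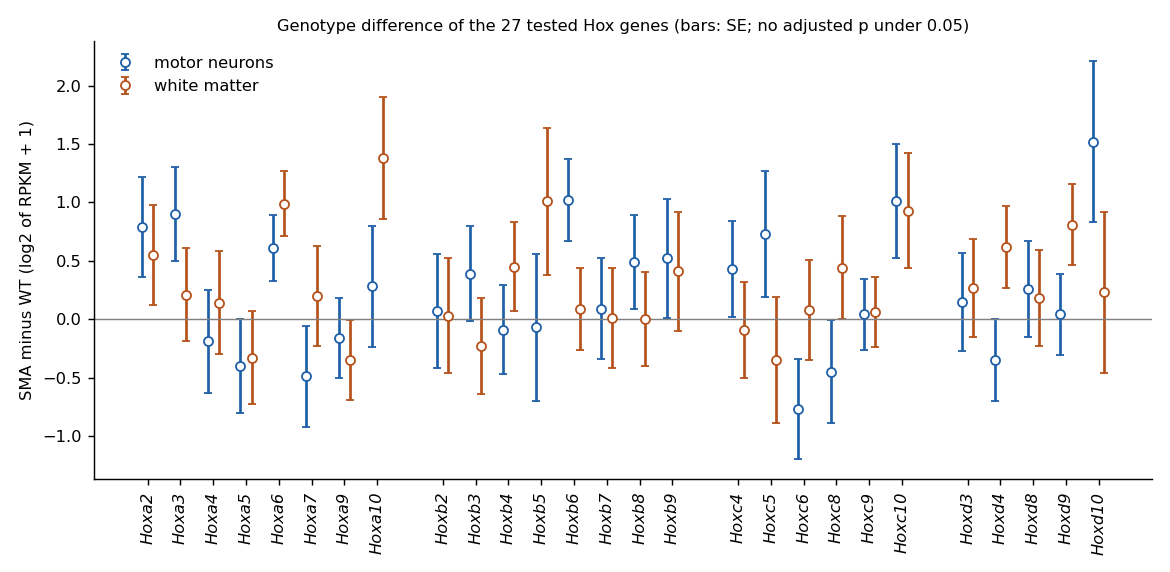
Difference of SMA minus WT on the log2(RPKM + 1) scale for the 27 tested Hox genes, in motor neurons (blue) and white matter (orange), with standard errors from limma. No point passed the threshold; Hoxd10 in motor neurons (1.52) and Hoxa10 in white matter (1.38) lie farthest from 0.

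Genes that work with or around the Hox proteins were read from companion lists, again as motor neurons minus white matter over both genotypes, where 23.5% of all genes were higher and 22.9% lower with a median log2 difference of -0.08. Of 9 cofactor genes, all tested, 4 were higher in motor neurons and 0 lower (median log2 difference 0.59). Meis2 had 33.6 ± 8.18 RPKM (SD, n = 4) in motor neurons and 12.4 ± 1.95 in white matter (adjusted p = 0.00106). Meis3 had 28.3 ± 3.95 and 11.8 ± 3.69 (adjusted p = 0.00115), Pbx3 had 44.7 ± 5.82 and 22 ± 4.61 (adjusted p = 0.00132) and Meis1 had 18.1 ± 3.34 and 11.7 ± 2.33 (adjusted p = 0.0429). The Meis1 call held in 8 of 16 alternatives and was lost without any single library other than SMA motor neuron replicate 2 (adjusted p up to 0.135).

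Of 22 motor column and pool genes, 21 were tested, and 10 were higher and 2 lower in motor neurons (median log2 difference 0.32). Ret, the receptor subunit for glial-derived neurotrophic factors, had 136 ± 14.9 RPKM against 3.41 ± 1.0 (adjusted p = 5.98e-07), and its co-receptor Gfra1 72.9 ± 14.8 against 6.61 ± 4.16 (adjusted p = 9.56e-06). The motor neuron transcription factors Isl1 and Mnx1 had 27.2 ± 5.84 and 6.39 ± 0.83 RPKM against 0.168 ± 0.199 and 0.0213 ± 0.0339 (adjusted p = 1.44e-06 and 1.63e-05). Ret, Isl1 and Mnx1 are also among the motor neuron markers. Foxp1, the Hox-dependent marker of limb-innervating columns, had 3.27 ± 1.05 RPKM in motor neurons against 4.35 ± 1.83 in white matter (adjusted p = 0.331).

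Of 31 Polycomb and trithorax genes in the table, 30 were tested, and 3 were higher and 8 lower in motor neurons (median log2 difference -0.49). Ezh2, the histone H3 lysine methyltransferase of Polycomb complex PRC2, had 4.29 ± 1.45 RPKM in motor neurons against 34.8 ± 3.74 in white matter (adjusted p = 2.8e-05). The PRC1 subunits Phc1 (17 ± 5.57 against 35.9 ± 8.25 RPKM, adjusted p = 0.00118) and Bmi1 (1.55 ± 0.331 against 5.44 ± 1.31, adjusted p = 0.00242) were also lower. Phf1, a PRC2 accessory protein, was higher, with 12.4 ± 3.41 against 2.83 ± 1.84 RPKM (adjusted p = 0.00303).

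Of 22 upstream signals and regulators of axial identity, 17 were tested, and 2 were higher and 2 lower in motor neurons (median log2 difference -0.36). Cyp26b1, which degrades retinoic acid, had 9.31 ± 1.68 RPKM in motor neurons against 1.11 ± 0.539 in white matter (adjusted p = 0.000108). The retinoic acid receptor Rarb had 8.42 ± 3.37 and 0.937 ± 0.809 RPKM (adjusted p = 0.000661). Gmnn (geminin) and Tgfbr1 were lower, with 0.582 ± 0.315 against 2.76 ± 0.764 and 5.01 ± 2.11 against 12.1 ± 2.43 RPKM (adjusted p = 0.00415 and 0.0111), and Tgfbr1 missed the threshold without WT white matter replicate 2 (0.053). Cdx1, Cdx2, Fgf8 and Cyp26a1 were listed at 0 in all libraries.

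Of the transcripts that share the Hox clusters, 7 were in the table and 3 were tested. Mir196b, a microRNA gene of the Hoxa cluster, was called lower in motor neurons over both genotypes. Its motor neuron values were 1.81 and 10.3 RPKM in WT and 0.288 and 0.143 in SMA. In white matter it had 4.47 and 10.2 RPKM in WT and 6.20 and 12.8 in SMA. These values rest on few reads: 14, 68, 2 and 1 in the motor neuron libraries, in that order, and 33, 84, 51 and 112 in white matter. WT motor neuron replicate 2 lay within the white matter range and the other 3 motor neuron libraries below it. In WT alone the regions overlapped, and 0 of the 3 tested transcripts passed. The interaction of region and genotype also passed for 0 of the 3. For Mir196b, the WT means by region were 6.06 (motor neurons) and 7.34 RPKM (white matter). Those of SMA were 0.215 and 9.51. The call averages over these 2 genotypes. The log2 difference was -1.76 ± 0.45 (adjusted p = 0.0109), and the call was lost without WT white matter replicate 2 (adjusted p = 0.0517), without SMA white matter replicate 2 (0.0501) and with voom (0.0734), in a range of 0.00278 to 0.0734 over 16 alternatives. Mir10b and Mir196a-2 missed the threshold (adjusted p = 0.623 and 0.957), and the direction of both depended on single libraries; without WT motor neuron replicate 1, Mir10b passed with a log2 difference of 1.33 (adjusted p = 0.0141). Reads at these genes come from size-selected cDNA fragments and so stand for longer transcripts, not for the mature microRNA.

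The miR-196 sequences are shown because they pair with several of the members that were lower in motor neurons. Mature miR-196a-5p and miR-196b-5p share 1 seed (bases 2 to 8, in capitals; RefSeq, GRCm38.p6), and they lie at chr11:96265187-96265208 and chr15:102973365-102973386, plus strand (miR-196a-5p, from a pair of genes), and chr6:52230129-52230150, minus strand (miR-196b-5p).
miR-196a-5p: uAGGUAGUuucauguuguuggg
miR-196b-5p: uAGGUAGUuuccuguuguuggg
The bases that would pair with either microRNA in Hox transcripts (GENCODE M21), past the stop codon, are given 5′ to 3′, with the stretch opposite the seed in capitals.
Hoxb8: cccaacaacatgaaACTGCCTa
Hoxb7: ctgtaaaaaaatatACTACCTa
Hoxb6: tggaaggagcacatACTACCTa
Hoxc8: cactcacaactctaACTACCTg
Hoxa7: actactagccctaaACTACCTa

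The Hoxb8 stretch pairs with 21 of the 22 bases of miR-196a-5p and makes 1 G:U pair, and it is the textbook example of a microRNA site cleaved in an animal. The other 4 hold the full seed match ACTACCT. That match lay past the stop codon in 8 of 39 members (20.5%), against 5.81% of 21899 protein-coding genes, with median lengths past the stop codon of 969 and 872 bases. It was found in 4 of the 9 members lower in motor neurons, in 0 of the 4 higher ones and in 3 of the 14 tested members that passed in neither direction (Hoxa4, Hoxa5 and Hoxa9). The family is shown because of this match, so these counts are not a test. The miR-10 seed match, searched in the same way, lay past the stop codon in 4 of 39 members (10.3%), against 11.8% of genes. It was found in 0 of the 9 lower members, 0 of the 4 higher ones and 2 of the 14 others tested. A match is a description and not a site of action.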

How the data were processed

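The data were 8 RNA-seq libraries, 2 for each of 4 groups. Levels are RPKM, as computed by the authors and deposited for each gene symbol, library by library. The tools named per the submitters' processing notes are TopHat, bedtools and DESeq, and the build is mm9. Their versions, the gene models, how reads were counted and whether strand was used: not given in the sources used here. Overlapping and antisense genes, of which 12 members have one in GENCODE M21, are therefore uncertain.

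Members were found by symbol; some items are not reported here. The members, the companion lists and the tests were chosen with earlier results of these data known. A model of 4 group means was fitted with limma 3.58.1 (R 4.3.3; eBayes with trend) to log2(RPKM + 1) of all 13948 genes with at least 1 RPKM in at least 2 libraries. P-values are two-sided and adjusted by Benjamini-Hochberg over all these genes, and 7 contrasts were made. A fold change on this scale understates the change of low genes. The fit and the read recovery were tested on simulated data.

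Whole reads were worked out from the steps of the RPKM values: a length that gives whole reads within 0.005 of a read was found for 17428 of 17431 genes above 0 in at least 3 libraries (99.98%). The reads were used for depth and for voom, which called 2, 4 and 11 Hox genes in WT, in SMA and over both. Read numbers are not given for members above 0 in fewer than 3 libraries.

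Values in every library are given for the 3 most abundant members of each cluster, for every member past the threshold and for paralog groups 10 and 11. Each companion list has up to 4 members named by smallest p; Foxp1, Mir10b, Mir196a-2, Evx1, Evx2, Aldh1a2 and the upstream genes listed at 0 were added after their values were seen. The alternatives were 2 filters, another pseudocount, 2 scalings, array weights, the compared libraries alone, a replicate block, voom, and leaving out each of the 8 libraries. Promoters and microRNAs are from RefSeq (GRCm38.p6), transcripts and exons from GENCODE M21. Python 3.11.15, numpy 2.4.6, pandas 2.3.3 and matplotlib 3.10.9 were used.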

Additional observations from a re-analysis of the deposited data

How the results depend on the processing

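No called Hox or companion gene value changed direction under the alternatives run. Of the uncalled values followed, Mir196a-2 (-0.06) was 0.10 with quantile normalization and -0.81 to 0.69 with 1 library left out, and Mir10b (0.42) was -0.49 to 1.33, lowest without WT motor neuron replicate 2. The count of Hox genes past the threshold, 13 over both genotypes, 4 in WT and 6 in SMA, was less stable. It was 7 over both genotypes and 1 in SMA with no filter on low values. There 19124 genes were tested, and whether this number lowered the count was not tested. It was 8 in WT and 2 in SMA with array weights, 7 in WT and 2 in SMA with the compared libraries alone, 8 in WT with quantile normalization and 2 in WT with voom; the cause was not tested. Leaving out 1 library gave 6 to 14 over both genotypes, 1 to 7 in WT and 0 to 8 in SMA. In the 3 genotype contrasts and the interaction the count was 0 under every alternative; over all genes, leaving out SMA motor neuron replicate 1 gave 15 higher and 107 lower in SMA motor neurons. With the replicate number as a block, 13, 3 and 4 Hox genes passed over both genotypes, in WT and in SMA, and 0 in the other contrasts; deviations of same-numbered libraries from their group means correlated by -0.343 to 0.08, so the numbers were not taken as pairs. Of 23 Hox calls followed through the alternatives, 268 of 378 recomputed values stayed past the threshold, and of 21 companion gene calls 324 of 336. Depth limits the lowest members: Hoxb8 rests on 6 reads in WT motor neuron replicate 1.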

Other observations

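Genes that flank the Hox clusters were read in the same comparison of motor neurons with white matter. Of 16 in the table, 10 were tested, and 2 were higher and 5 lower in motor neurons, with a median log2 difference of -0.63. Over all genes, 23.5% were higher and 22.9% lower, with a median of -0.08. Lnp, beyond Evx2 on the Hoxd13 side of the Hoxd cluster, had 11.4 ± 5.07 RPKM (SD, n = 4) in motor neurons and 2.95 ± 0.954 in white matter (adjusted p = 0.00717 by limma). Snx10 and Skap2, neighbours beside the Hoxa cluster, went opposite ways: Snx10 had 18.0 ± 6.71 and 5.49 ± 1.31 RPKM (adjusted p = 0.00386), and Skap2 6.14 ± 3.07 and 23.9 ± 7.10 (adjusted p = 0.000361). Calcoco1, past the silent end of the Hoxc cluster, had 3.03 ± 0.921 and 7.77 ± 1.57 RPKM (adjusted p = 0.00325). The homeobox genes Evx1 and Evx2, which border the silent ends of the Hoxa and Hoxd clusters, were low, at 0.084 to 1.02 and 0 to 1.77 RPKM in motor neurons and at most 0.0539 and 0.0885 in white matter.

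Aldh1a2, a retinoic acid synthesis enzyme of limb-level motor neurons and meninges, was at 6.52 RPKM in SMA motor neuron replicate 1, the library with the highest Hoxc10 and Hoxd10, and at 0 in the other 3 motor neuron libraries. In white matter it was at 0.635 to 3.19 RPKM. The library also had the highest fibroblast or meningeal marker sum of the motor neuron libraries (16.1 RPKM, against 3.92 to 7.18). The part of either in the Hox values was not tested.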
